A study of Danio rerio with 23 samples.

Results

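The transcripts described here are those that set the ovary of older nr3c1 mutant zebrafish apart from the ovary of younger mutants and of wild types at both ages. They are 150 of the 57775 transcripts in the deposited tables, and they were chosen by their measured levels. Counts were expressed per 1000000 counts of the library (CPM), each group was reduced to its median of log2(CPM + 0.5), and transcripts had to average 1 CPM or more over the 23 libraries, which left 21333 to choose from. The low set is the 75 transcripts whose median in the 6-month mutants lay farthest below the lowest of the other 3 group medians. The high set is the 75 whose median in the 6-month mutants lay farthest above the highest of the other 3. The distance to the nearest other group median is called the gap. Since the levels in the 6-month mutants made the choice, the difference between that group and the others is given as a description, without a test.

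The study asked what part loss of the glucocorticoid receptor plays in faster ageing of the zebrafish ovary. Polyadenylated RNA from whole ovaries of females was sequenced in 4 groups. The GRKO groups carried nr3c1 -/-, a loss of the receptor gene in the whole body, and were 6 months old (6 libraries, numbered 2, 3, 5, 10, 11 and 12 in their titles) or 3 months old (6 libraries, numbered 4, 7, 9, 10, 12 and 13). The WT groups were wild type and were 6 months old (6 libraries, numbered 1, 2, 6, 7, 8 and 9) or 3 months old (5 libraries, numbered 2, 6, 10, 12 and 13). Ages are counted from fertilisation, and the labels name no agent for any group. GRKO library 4 at 3 months has a mutant title and library name and a wild-type genotype field, and it was kept with the mutants by its title. Whether the libraries are from different fish is not in the labels. P-values therefore set differences against the spread among libraries, which may be technical in part. The labels also give no strain, clutch, parentage or sequencing batch, so values within such batches could not be given.

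The glucocorticoid receptor is the nuclear receptor for cortisol. In the cell it is held in an inactive complex until the hormone binds, after which it enters the nucleus and changes the transcription of its target genes. The zebrafish ovary holds follicles of many stages at the same time, and much of its RNA is stored in growing oocytes, with smaller parts from the granulosa and theca cells around them, blood cells and stroma. In RNA from whole ovaries, fewer cells of a type and less RNA per cell cannot be told apart.

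Each library summed to between 29489146 and 39785753 estimated counts. Totals were 31242818 to 37292796 in GRKO at 6 months, 30452427 to 37985230 in GRKO at 3 months, 29489146 to 35535800 in WT at 6 months and 33606803 to 39785753 in WT at 3 months. Among the GRKO libraries at 6 months, library 12 had the lowest scaling factor for composition (TMM, 0.852), and 1 transcript took 2.93% of the counts in library 10 and 1.53% in library 12, against 0.676% to 1.05% in each of the 21 other libraries. The tables do not pair transcript identifiers with genes, and of the name tables used here none held them (0 matched). Transcripts are therefore given by Ensembl identifier only, and the tissue's marker genes and nr3c1 itself were not analysed here.

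In the low set the gap ran from 4.02 on the log2 scale (a fold of 16.2 in CPM + 0.5) at rank 1 through 1.55 at rank 38 to 1.14 at rank 75. The last 3 members had gaps of 1.158, 1.15 and 1.145, and the next 3 transcripts outside the set had gaps of 1.14, 1.126 and 1.121. In the high set the gap was 5.67 (a fold of 50.9) at rank 1, 1.07 at rank 38 and 0.83 at rank 75. Its last 3 members had 0.8328, 0.8322 and 0.8315, and the next 3 transcripts had 0.8305, 0.8273 and 0.8241. Both sets thus ended inside a smooth run of values, and nothing marked rank 75 as an edge.

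Applied in the same way to each of the other groups, the rule found fewer transcripts for the 6-month mutants than for any other group. With GRKO at 6 months as the group set apart, 98 transcripts lay over 1 log2 unit below every other group median and 47 lay over 1 unit above. The same counts were 297 below and 145 above for GRKO at 3 months, 136 and 204 for WT at 6 months, and 204 and 277 for WT at 3 months. At rank 75 the gap of the low side was 1.14 for GRKO at 6 months, 2.05 for GRKO at 3 months, 1.38 for WT at 6 months and 1.69 for WT at 3 months. On the high side it was 0.83, 1.44, 1.68 and 2.43 in the same order of groups. At rank 1 of the high side the gap was 5.67 for GRKO at 6 months and 4.95 for GRKO at 3 months, so this order did not hold at every rank. The groups also differed in size and spread, and the counts were not adjusted for either. WT at 3 months had 5 libraries and the other groups 6 each. Over the transcripts the rule chose from, the median within-group SD was 0.47 in WT at 3 months and 0.26 to 0.34 in the others.

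**Figure D1:**
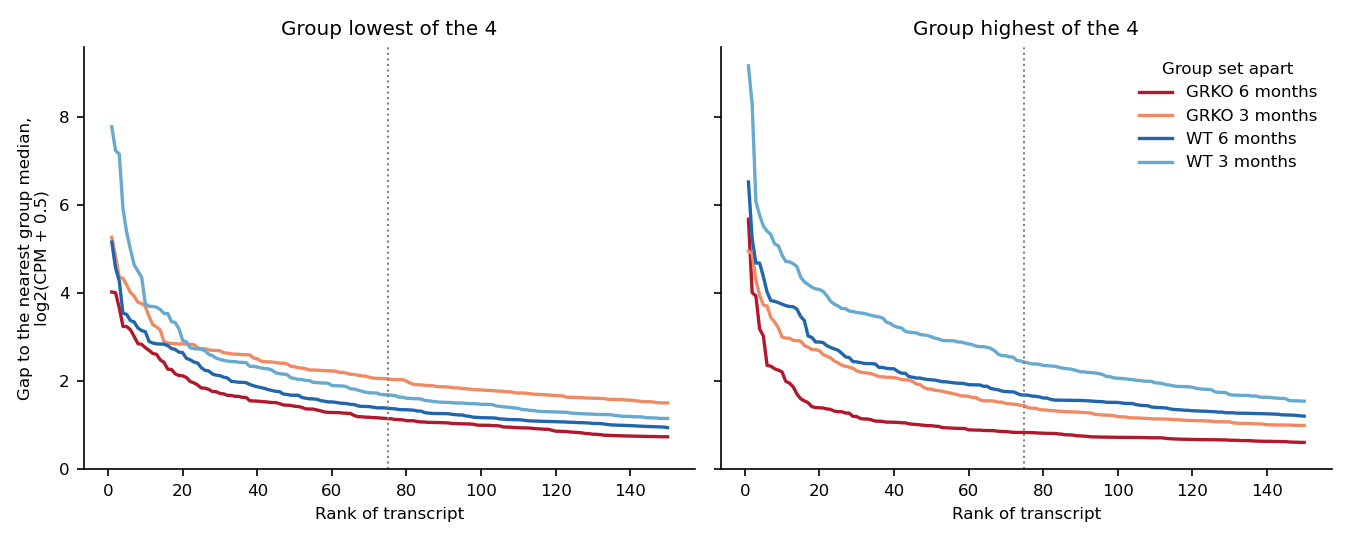
Gap to the nearest other group median (log2 of CPM + 0.5, vertical axis) against rank (horizontal axis), with each of the 4 groups in turn as the one set apart; the left panel has the group lowest and the right panel highest, and the dotted line marks rank 75. At rank 75 the line of GRKO at 6 months is the lowest of the 4 in both panels, at 1.14 and 0.83.

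Members were mostly scarce transcripts. The mean level over all 23 libraries had a median of 4.4 CPM in the low set (range 1.03 to 73.7) and 3.6 CPM in the high set (1.01 to 49.4), against 10.3 CPM over the transcripts the rule chose from. In the low set 59 members and in the high set 58 members averaged under 10 CPM, where 49.5% of all eligible transcripts did. Estimated counts were whole numbers in every library for 6 low members (8%) and 8 high members (10.7%), against 14.1% of the eligible transcripts, so most members shared at least some reads with other transcripts. Ensembl adds 1 to the version in an identifier when the transcript model changes. In the low set 27 identifiers (36%) and in the high set 14 (18.7%) were still at version 1, against 15.7% of the eligible transcripts.

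Members varied more within groups than the eligible transcripts did, in all 4 groups. Members were also scarcer, and spread was not compared at equal level, so scarcity and spread cannot be told apart here. The within-group SD of log2(CPM + 0.5) had a median over the low set of 1.04 in GRKO at 6 months, 0.84 in GRKO at 3 months, 0.86 in WT at 6 months and 0.76 in WT at 3 months. In the high set the medians were 1.03, 0.93, 1.06 and 0.82 in that order, and over the eligible transcripts they were 0.33, 0.26, 0.34 and 0.47. A range of 8-fold or more in CPM + 0.5 between libraries of GRKO at 6 months was seen in 32 low members and 33 high members, against 6.55% of eligible transcripts. Low members also included many transcripts at 0. A rounded count of 0 occurred in 1 or more of the GRKO libraries at 6 months for 49 of the 75 low members, against 1709 of the 21333 eligible transcripts. It occurred in 3 or more of them for 29 low members, against 636 eligible transcripts. Among the 17 other libraries, 30 low members had a 0 in at least 1, against 2699 eligible transcripts. The rule took members low in GRKO at 6 months, so zeros there follow in part from the choice.

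Complete separation was rare. In 2 of the 75 low members all 6 GRKO libraries at 6 months lay below all 17 other libraries, and in 0 of the 75 high members did all 6 lie above them. Over the eligible transcripts the shares were 0.0281% and 0.00938%. No library can lie below a level of 0, so transcripts at 0 in any of the 17 others could not count on the low side. The low-side counts and shares in this paragraph are limited by this. At least 1 GRKO library at 6 months lay beyond the 17 others for 43 low and 53 high members, against 25.7% and 17.2% of eligible transcripts. GRKO library 12 at 6 months lay below the 17 others in 19.5% of eligible transcripts, and each other GRKO library at 6 months in 1.98% to 3.05%. CPM was not scaled by TMM, whose factor was 0.852 in library 12, and whether that accounts for its share was not tested. At least 3 of the GRKO libraries at 6 months lay beyond the 17 others for 34 low and 30 high members, against 1.2% and 1.48%. The rule used these levels, so nothing is read from these shares.

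The widest separations of the low set were in scarce transcripts. ENSDART00000156187.2 had the widest, with 0.175 to 0.478 CPM in GRKO at 6 months (median 0.285), 0.685 to 1.96 CPM in GRKO at 3 months (median 1.28), 1.18 to 12.8 CPM in WT at 6 months (median 5.49) and 2.11 to 10.9 CPM in WT at 3 months (median 6.57). Its highest 6-month GRKO library lay 0.28 log2 units below the lowest other library. ENSDART00000126857.3, the other low member that separated fully, had 0.0293 to 0.171 CPM in GRKO at 6 months, with a median of 0.127 CPM. In GRKO at 3 months it had 0.259 CPM in library 4 and 5.22 to 10.8 CPM in the 5 others, and it had 6.26 to 9.85 CPM in WT at 6 months and 4.14 to 17.8 CPM in WT at 3 months. GRKO library 4 at 3 months, the library with conflicting labels, was thus its nearest neighbour.

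The high members that came closest to separation did so at higher levels. ENSDART00000134121.2 had 38.9 to 65.0 CPM in GRKO at 6 months (median 41.0), 6.51 to 43.0 CPM in GRKO at 3 months (median 23.7), 12.4 to 26.7 CPM in WT at 6 months (median 16.1) and 1.29 to 32.2 CPM in WT at 3 months (median 11.0). Of the 17 other libraries, GRKO library 12 at 3 months, at 43.0 CPM, overlapped the 6-month mutants. ENSDART00000167993.2 had 49.7 to 86.0 CPM in GRKO at 6 months, 9.12 to 55.7 CPM in GRKO at 3 months, 11.5 to 51.6 CPM in WT at 6 months and 16.4 to 45.3 CPM in WT at 3 months. Its overlap came from the young mutant library 4 (55.7 CPM) and the older WT library 2 (51.6 CPM), both above the 49.7 CPM of GRKO library 12 at 6 months.

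In the transcript with the largest gap of each set, GRKO libraries 2, 3 and 5 at 6 months stood beyond all 20 other libraries. ENSDART00000191271.1, at rank 1 of the low set, had 0, 0 and 0 CPM in these libraries and 19.2, 20.6 and 9.66 CPM in libraries 10, 11 and 12. It had 17.2 to 47.9 CPM in GRKO at 3 months (median 42.2), 17.3 to 40.6 CPM in WT at 6 months (median 36.0) and 37.5, 47.2, 34.7, 34.1 and 36.5 CPM in WT at 3 months. Its levels fell into 3 ranges: 0 in 3 libraries, 9.66 to 23.8 CPM in GRKO libraries 10, 11 and 12 at 6 months, GRKO libraries 12 and 13 at 3 months and WT library 7 at 6 months, and 31.5 to 47.9 CPM in the 14 others. ENSDART00000113789.2, at rank 1 of the high set, divided the libraries in the same way with the order turned round. It had 94.6, 76.4 and 69.7 CPM in GRKO libraries 2, 3 and 5 at 6 months and 31.6, 37.1 and 43.5 CPM in libraries 10, 11 and 12. GRKO libraries 12 and 13 at 3 months had 40.6 and 45.7 CPM, WT library 7 at 6 months had 33.4 CPM, and the 14 others had 0.185 to 0.793 CPM.

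The same 3 ranges of libraries recurred in other members, a pattern noticed after the values were seen. GRKO libraries 2, 3 and 5 at 6 months all lay below the 20 other libraries in 17 low members and all lay above them in 8 high members. Of the 19 other ways to take 3 of the 6 GRKO libraries at 6 months, each did so in 0 to 3 low members and in 0 to 4 high members. Over the eligible transcripts libraries 2, 3 and 5 lay lowest in 32 and highest in 36, where the 19 other choices of 3 did so in 3 to 29 and in 2 to 89. Of the 17 low members, 9 had a rounded count of 0 in all of these 3 libraries, against 249 of the 21333 eligible transcripts. In the 20 others 0 of the 17 had a 0. Both counts of zeros follow largely from taking members with these 3 libraries lowest, so nothing is read from them. The identifiers of these members were at version 1 in 13 of 17 cases. Of these, ENSDART00000193000.1 and ENSDART00000189210.1 had equal estimated counts (within 0.01) in 18 libraries, so they shared reads and are not 2 independent measurements. They were not equal throughout. In the order of their names they had 2.17 and 23.4 CPM in GRKO library 11 at 6 months. They had 3.50 and 21.7 CPM in GRKO library 13 at 3 months and 6.36 and 16.1 CPM in WT library 7 at 6 months.

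The next libraries in order were also often the same. Among the 17 low members, the 6 libraries nearest to libraries 2, 3 and 5 included GRKO libraries 10, 11 and 12 at 6 months in 14, 12 and 15, GRKO libraries 12 and 13 at 3 months in 12 and 14, and WT library 7 at 6 months in 14. Each of the 14 other libraries was among them in at most 3. In 6 of the 17 the 6 libraries were exactly these. Among the 8 high members the counts were 6, 6 and 6 for GRKO libraries 10, 11 and 12 at 6 months, 6 and 5 for GRKO libraries 12 and 13 at 3 months and 5 for WT library 7 at 6 months, and in 3 of the 8 the 6 libraries were exactly these. This middle range thus held libraries of both genotypes and both ages. The rule used the levels of GRKO libraries 10, 11 and 12 at 6 months, so their places follow in part from the choice. The same order was not counted over all eligible transcripts.

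ENSDART00000053684.7, the second most abundant low member, shows the ranges at a higher level. It had 4.56, 2.63 and 2.16 CPM in GRKO libraries 2, 3 and 5 at 6 months. The 6 middle libraries had 25.3 to 49.6 CPM and the 14 others 54.1 to 92.5 CPM. The most abundant low member, ENSDART00000169235.2, did not follow them. It had 33.4, 7.29, 12.4, 12.5, 6.78 and 7.90 CPM in GRKO libraries 2, 3, 5, 10, 11 and 12 at 6 months, 17.7 to 64.3 CPM in GRKO at 3 months (median 34.0), 105 to 144 CPM in WT at 6 months (median 121) and 119 to 149 CPM in WT at 3 months (median 131). All 12 GRKO libraries lay below all 11 WT libraries, and WT library 7 at 6 months, at 144 CPM, was the highest but for WT library 13 at 3 months.

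**Figure D2:**
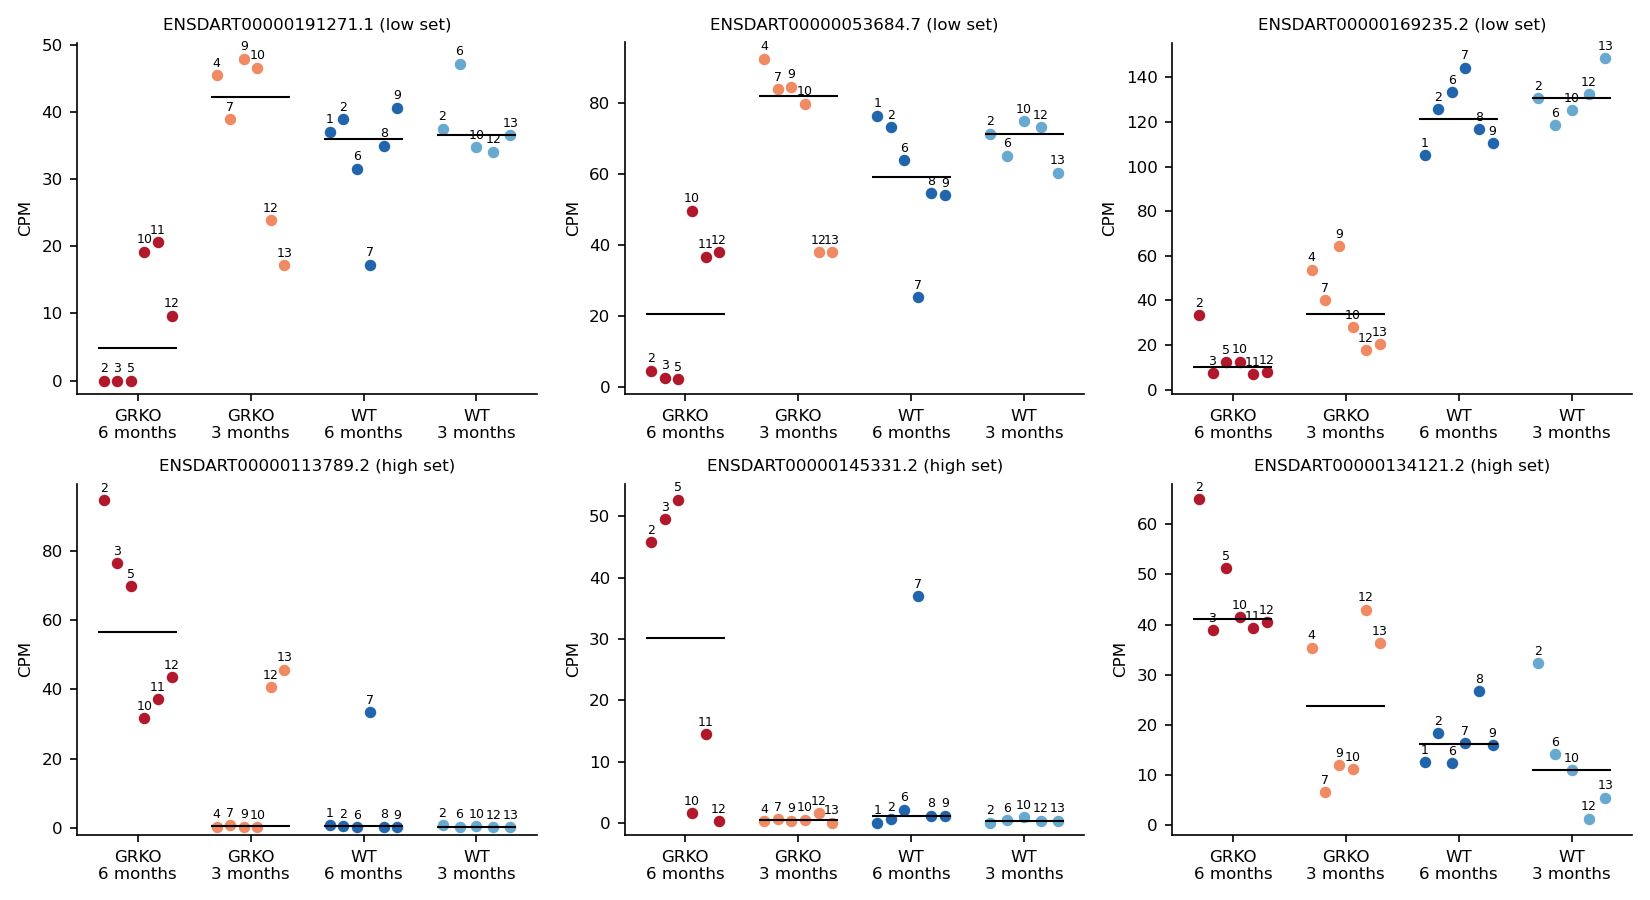
CPM (vertical axis) of 3 low members (top) and 3 high members (bottom) in each library; points are libraries with their numbers, and bars are group medians. In ENSDART00000191271.1 and ENSDART00000113789.2, GRKO libraries 12 and 13 at 3 months and WT library 7 at 6 months lie with GRKO libraries 10, 11 and 12 at 6 months, whereas in ENSDART00000169235.2 all 12 GRKO libraries lie below the 11 WT libraries.

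Other high members had other neighbours. ENSDART00000145331.2, with the second largest gap, had 45.8, 49.6 and 52.7 CPM in GRKO libraries 2, 3 and 5 at 6 months and 1.56, 14.5 and 0.238 CPM in libraries 10, 11 and 12. WT library 7 at 6 months had 37.0 CPM, and the 16 remaining libraries had 0 to 2.16 CPM. The most abundant high members differed less between groups. ENSDART00000104475.3 had 85.8, 85.1, 119, 47.0, 20.0 and 73.7 CPM in GRKO libraries 2, 3, 5, 10, 11 and 12 at 6 months, against 23.9 to 61.5 CPM in GRKO at 3 months, 18.8 to 81.9 CPM in WT at 6 months and 16.7 to 69.3 CPM in WT at 3 months. ENSDART00000110514.6 had 68.6, 82.4, 87.5, 81.5, 75.8 and 31.1 CPM in GRKO at 6 months, against 35.9 to 59.7 CPM in GRKO at 3 months, 27.6 to 90.1 CPM in WT at 6 months and 4.85 to 65.4 CPM in WT at 3 months. In both, the ranges of GRKO and WT at 6 months overlapped.

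Over all members, a library was called past the midpoint when it lay on the 6-month GRKO side of the point midway between the 6-month GRKO median and the nearest other group median. The rule needs at least 3 of the 6 GRKO libraries at 6 months there. Exactly 3 were past it in 14 low and 19 high members, 4 in 37 and 24, 5 in 17 and 20, and all 6 in 7 and 12. Libraries 2, 3 and 5 were all past the midpoint in 38 low and 44 high members. In the low set GRKO libraries 2, 3, 5, 10, 11 and 12 at 6 months were past it in 57, 57, 63, 52, 39 and 49 members, and in the high set in 53, 67, 64, 48, 45 and 48.

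Of the 17 other libraries, GRKO library 13 at 3 months was past the midpoint most often, in 27 low and 33 high members. GRKO library 12 at 3 months was past it in 14 low and 30 high members, and the 4 remaining GRKO libraries at 3 months in 5 to 16 low and 5 to 19 high members. WT libraries at 6 months were past it in 5 to 18 low members (most in library 7) and 7 to 21 high members (most in library 6). WT libraries at 3 months were past it in 5 to 15 low and 6 to 19 high members. The nearest group median was that of GRKO at 3 months in 49 low and 44 high members, of WT at 6 months in 16 and 22, and of WT at 3 months in 10 and 9. Neither the counts past the midpoint nor those of the nearest group were made over all eligible transcripts. Whether they are particular to the members therefore cannot be told.

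Single libraries often set the far end of the other groups. GRKO library 13 at 3 months was the lowest of the 17 other libraries in 17 low members, against 7% of eligible transcripts, WT library 7 at 6 months in 8, against 4.99%, and WT library 2 at 3 months in 9, against 13.7%. Each of the 14 others was the lowest in 1 to 7. Where libraries tied, as at a level of 0, only the first was counted. The order was WT at 3 months, WT at 6 months and GRKO at 3 months, each by library number. WT library 2 at 3 months came first in that order and GRKO library 13 at 3 months last. The counts and shares for the lowest library therefore depend in part on that order. WT library 6 at 6 months was the highest of the 17 in 14 high members, against 9.49%, and in 13 of these 14 GRKO libraries 2, 3 and 5 at 6 months were all past the midpoint. GRKO libraries 12 and 13 at 3 months were the highest in 12 and 9 high members, against 5.9% and 1.47%. The wild types 2 (3 months) and 7 (6 months) were the highest in 7 each, against 17.4% and 8.17%, and each of the 12 others in 0 to 4.

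**Figure D3:**
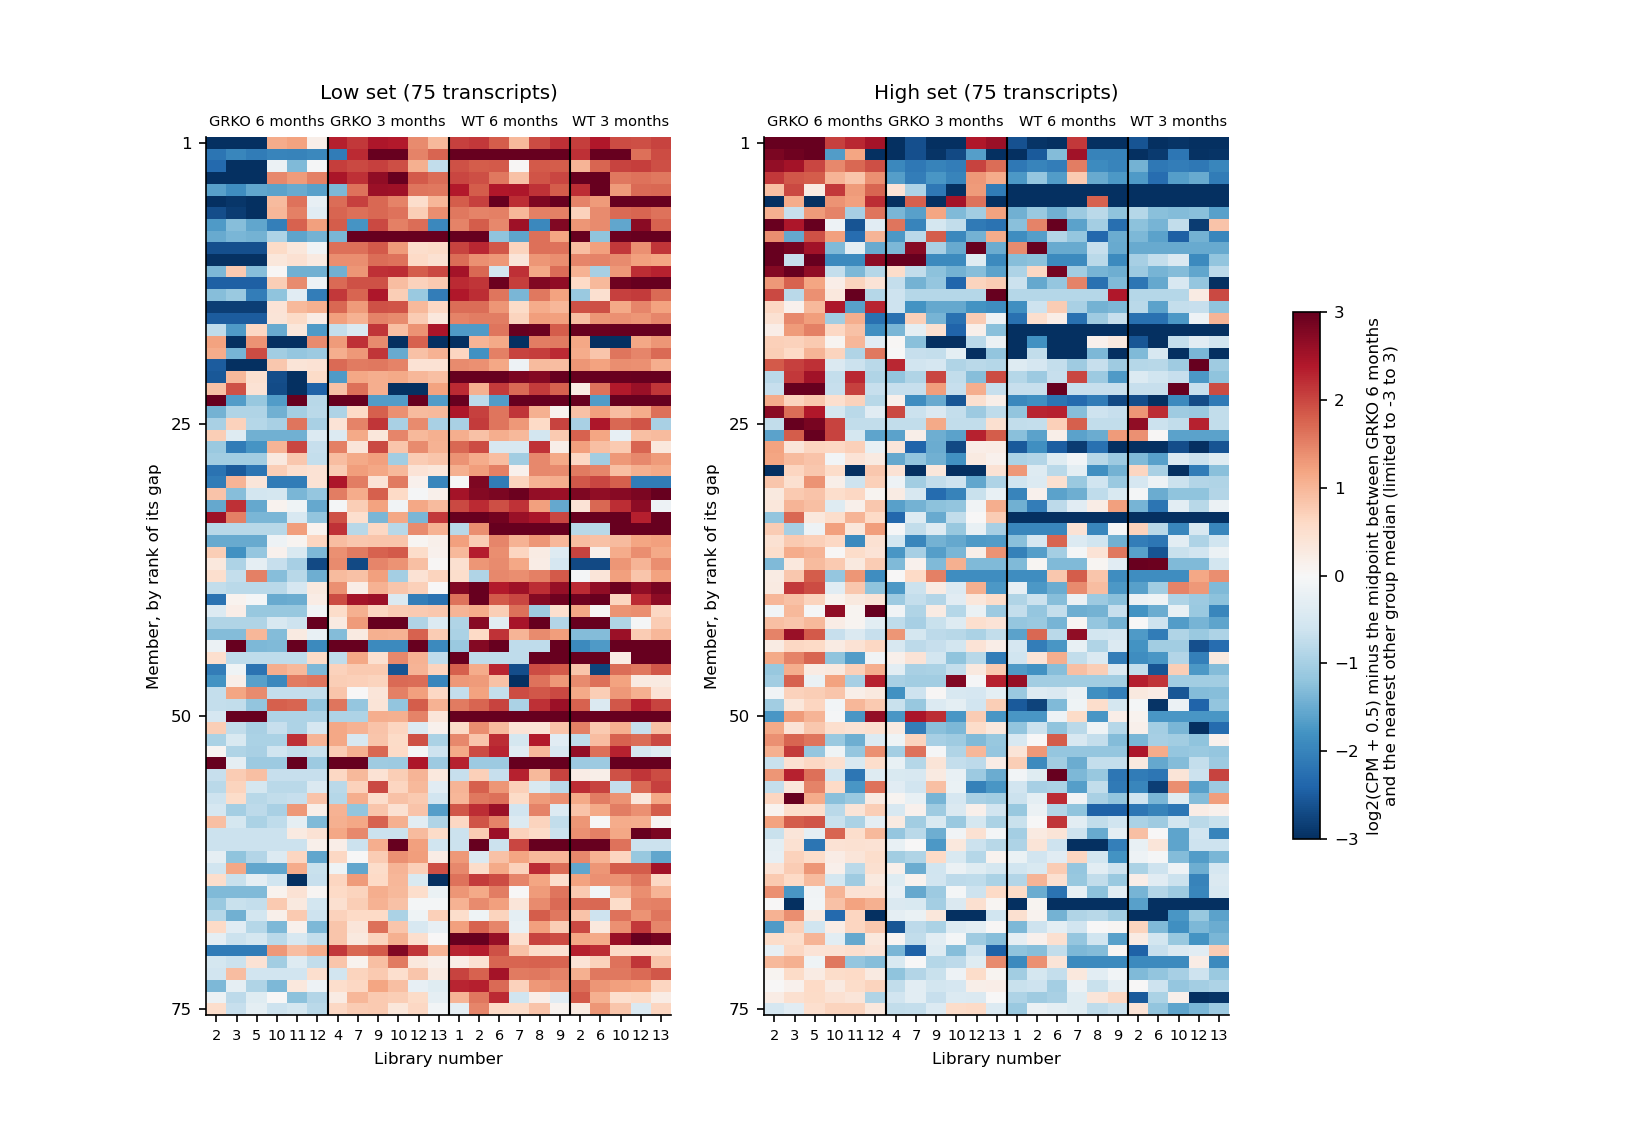
Level of each of the 75 low and 75 high members (rows, by rank of the gap) in each of the 23 libraries (columns, by group and library number), as log2(CPM + 0.5) minus the midpoint between the 6-month GRKO median and the nearest other group median, limited to -3 and 3; blue lies below the midpoint and red above it. Near the top of the low set GRKO libraries 2, 3 and 5 at 6 months are the darkest blue, and most rows of both sets have libraries of other groups on the 6-month GRKO side.

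Summed over the set, the low members came to 186, 223, 126, 247, 413 and 258 CPM in GRKO libraries 2, 3, 5, 10, 11 and 12 at 6 months. They came to 343.5 to 792 CPM in GRKO at 3 months (median 705), 657 to 1021 CPM in WT at 6 months (median 965) and 931 to 1052 CPM in WT at 3 months (median 1010). The means were 242 ± 96.3 CPM (SD, n = 6), 637 ± 178 CPM (n = 6), 921 ± 135 CPM (n = 6) and 998 ± 50.4 CPM (n = 5) in that order. The lowest of the GRKO libraries at 3 months was library 13 and the lowest WT library at 6 months was library 7, both in the middle range described above.

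The high members summed to 1094, 1228, 1310, 806, 771 and 809 CPM in GRKO libraries 2, 3, 5, 10, 11 and 12 at 6 months. They summed to 373 to 642 CPM in GRKO at 3 months (median 476), 298 to 525 CPM in WT at 6 months (median 424) and 186 to 424 CPM in WT at 3 months (median 268). The means were 1003 ± 238 CPM (SD, n = 6), 489 ± 113 CPM (n = 6), 416 ± 95.7 CPM (n = 6) and 279 ± 90.6 CPM (n = 5). Libraries 2, 3 and 5 again stood beyond libraries 10, 11 and 12, and no library of another group reached 771 CPM. The rule fixes the direction of both sums, and single abundant transcripts weigh most in them.

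**Figure D4:**
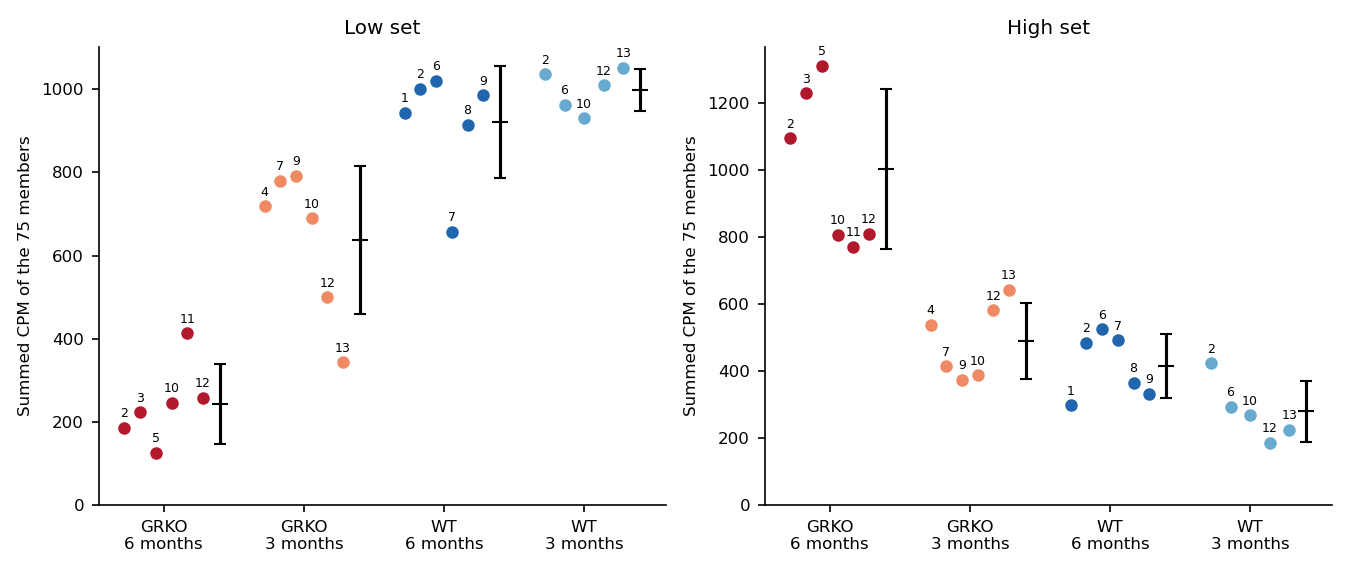
Summed CPM of the 75 low members (left) and 75 high members (right) in each library, by group; points are libraries with their numbers, and each bar beside them gives the mean ± SD. The 6 libraries of GRKO at 6 months sum to 126 to 413 CPM in the low set and 771 to 1310 CPM in the high set.

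To see the same measure in a library that the choice had not used, the rule was applied without each GRKO library at 6 months in turn, and the left-out library was set against the medians of the 3 other groups. Of the 75 low transcripts chosen without it, library 2 lay below all 3 medians in 54 (72%, against 24.0% of eligible transcripts). The counts were 51 for library 3 (68%, against 19.2%), 49 for library 5 (65.3%, against 14.3%), 52 for library 10 (69.3%, against 23.7%), 46 for library 11 (61.3%, against 19.6%) and 57 for library 12 (76%, against 48.9%). Each left-out library was below the other medians more often among the chosen transcripts than among all eligible ones. Between 18 and 29 of the 75 were not below. The choice used these same medians of the other groups, so part of this excess follows from the choice and nothing is read from it.

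Of the 75 high transcripts chosen without it, library 2 lay above all 3 medians in 37 (49.3%, against 15.7%). The counts were 47 for library 3 (62.7%, against 27.6%), 51 for library 5 (68%, against 37.4%), 47 for library 10 (62.7%, against 24.3%), 35 for library 11 (46.7%, against 22.7%) and 41 for library 12 (54.7%, against 20.1%). The medians of the other groups took part in the choice and the 6 left-out libraries share the rest of the data, so these shares are not independent of the choice or of each other and carry no test. The list itself moved with 1 library: 49 to 60 of the 75 low members and 44 to 56 of the 75 high members were chosen again.

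**Figure D5:**
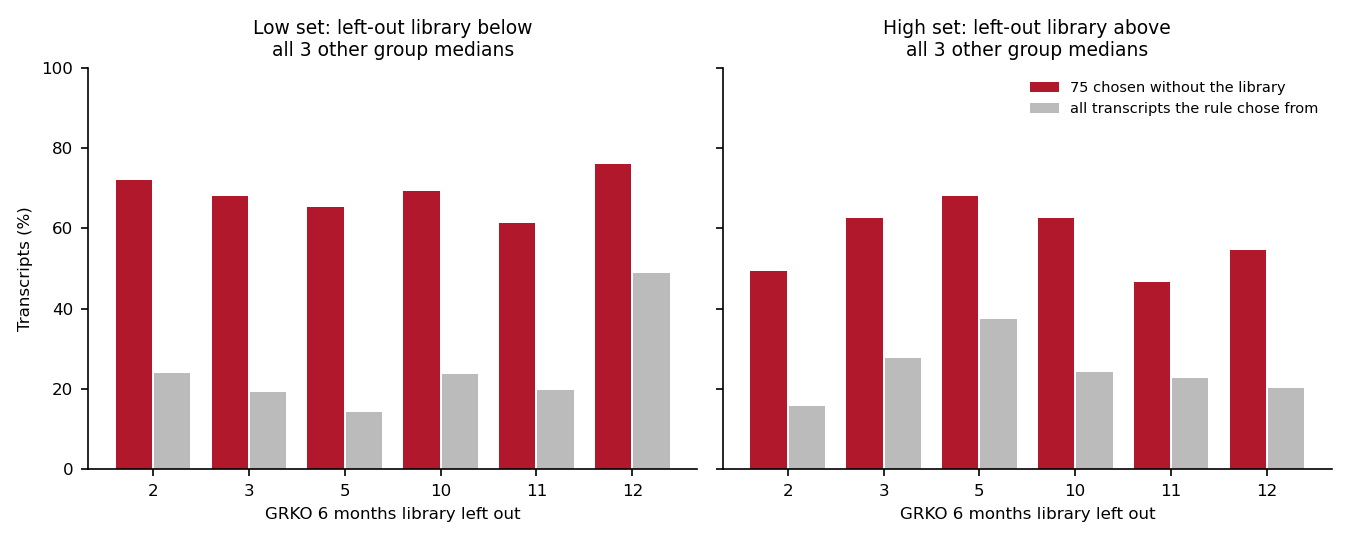
Percent of transcripts (vertical axis) in which the left-out GRKO library at 6 months (horizontal axis) lay below (left, low set) or above (right, high set) all 3 other group medians; red bars are the 75 transcripts chosen without that library, and grey bars are all transcripts the rule chose from. The red bars run from 61.3% to 76% in the low set and from 46.7% to 68% in the high set, each above its grey bar. The choice used the same medians of the other groups, so part of the difference between the bars follows from it.

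Among the groups that the rule did not set apart, receptor loss at 3 months was tested with edgeR's quasi-likelihood test, with Benjamini-Hochberg adjustment over all 30849 transcripts tested and a threshold of 0.05. All 150 members passed the filter on low counts. In GRKO against WT at 3 months, 3 of the 75 low members fell and 0 rose, where 5.73% of all tested transcripts fell. Of the high members 6 of 75 rose and 0 fell, where 2.66% of all tested transcripts rose. In all, 8.39% of tested transcripts passed in either direction. The difference between the members' shares and these shares was not tested. The median log2 fold change was -0.48 in the low set and 0.58 in the high set, against -0.09 over all tested transcripts. The fold change was below 0 in 62 low members, where 57.1% of all tested transcripts were below 0. It was above 0 in 58 high members, where 42.9% of all tested transcripts were above 0. The rule read these groups through the lowest or highest of their medians, so it is not wholly independent of this comparison. The test also took the spread of each transcript from all 23 libraries, those of GRKO at 6 months among them. In that group the median within-group SD was 1.04 in the low set and 1.03 in the high set, against 0.33 over eligible transcripts. The effect of this on the calls was not tested.

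The low members that fell at 3 months were low in the mutants at both ages. ENSDART00000115076.4 had 1.11, 11.2, 10.5, 11.0, 9.82 and 9.26 CPM in GRKO libraries 4, 7, 9, 10, 12 and 13 at 3 months, against 67.8, 67.4, 40.2, 43.9 and 62.9 CPM in WT at 3 months. It fell by 2.68 on the log2 scale (SE 0.78, edgeR adjusted p = 0.0357). At 6 months it had 0.388, 9.68, 6.70, 0.320, 0.0570 and 7.30 CPM in GRKO libraries 2, 3, 5, 10, 11 and 12, against 34.5 to 96.3 CPM in WT, so its 12 mutant libraries lay below the 11 wild-type ones. Its adjusted p passed the threshold under 21 of 32 alternatives and was as high as 0.213 in the others, among them the fit without GRKO library 4 at 3 months (0.0661).

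ENSDART00000156187.2, whose values are given above, fell by 2.23 on the log2 scale at 3 months (SE 0.51, edgeR adjusted p = 0.00944), with all 6 GRKO libraries below the 5 WT libraries. ENSDART00000169235.2 fell by 1.82 (SE 0.36, edgeR adjusted p = 0.00366), also without overlap. It passed the threshold under all 32 alternatives, and ENSDART00000156187.2 under 30 of them.

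The high members with the largest folds at 3 months were at 0, after rounding, in each of the 11 WT libraries. ENSDART00000102534.4 had 7.01, 2.48, 0.773, 0.109, 13.3 and 0.824 CPM in GRKO libraries 4, 7, 9, 10, 12 and 13 at 3 months and 10.1, 21.7, 6.15, 23.9, 13.2 and 18.4 CPM in GRKO libraries 2, 3, 5, 10, 11 and 12 at 6 months. At 3 months it was at least 249-fold higher in GRKO than in WT, taking 3 counts over the 5 WT libraries together as the floor (edgeR adjusted p = 0.00307). Without GRKO library 12 at 3 months this limit was 136-fold. ENSDART00000186235.1 had 1.09, 2.95, 5.29, 0.283, 4.12 and 1.24 CPM in GRKO libraries 4, 7, 9, 10, 12 and 13 at 3 months and 4.28, 9.55, 11.3, 5.83, 7.15 and 0.662 CPM in GRKO libraries 2, 3, 5, 10, 11 and 12 at 6 months. It was at least 152-fold higher in GRKO at 3 months (edgeR adjusted p = 0.0007, same floor). Both transcripts were present in GRKO library 4 at 3 months, whose genotype field reads wild type. When that library was counted as WT, 1 high member passed, where 1.48% of all tested transcripts did. The log2 fold changes of these transcripts were then 1.47 and 3.84, with edgeR adjusted p = 0.679 and 0.131.

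In 6 against 3 months in WT, edgeR's test called 3 of all 30849 tested transcripts (0.00972%). It called 0 low and 0 high members, which at that share tells nothing particular about the members. The spread in this test again came from all libraries, those of GRKO at 6 months among them. At an unadjusted p under 0.05 there were 0 low and 9 high members, where 11.3% of all tested transcripts were. DESeq2 called 0 low members and 1 high member, where it called 1.68% of transcripts with an adjusted p. With limma 0 of each passed, where 0.0681% of all tested transcripts did. The median log2 fold change was -0.11 in the low set and 0.36 in the high set, against -0.01 over all tested transcripts. These comparisons share libraries with each other, and the values are given side by side for that reason.

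The rule used the remaining comparisons, so their counts are given without a reading. In GRKO against WT at 6 months edgeR's test called 14 low members lower, where it called 3.51% of all tested transcripts lower, and 14 high members higher, where it called 2.53% higher. In 6 against 3 months in GRKO it called 3 low members lower, where it called 0.013% lower. It called 0 high members higher there, where it called 0.00324% higher. At an unadjusted p under 0.05 there were 20 high members, where 10.3% of all tested transcripts were. DESeq2 called 6 high members higher, where it called 1.69% higher, and limma called 13, where it called 0.849% higher. In the interaction of genotype and age edgeR's test called 2 low members, where it called 0.00648% of all tested transcripts. With 1 library left out in turn it called 0 to 3, where it called 0% to 0.00978% of all tested transcripts. It called 0 high members in the interaction, with 9 at an unadjusted p under 0.05, where 4.83% of all tested transcripts were. DESeq2 called 1 high member, where it called 1% of transcripts, and limma called 0, where it called 0.00324%.

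The low members called in the interaction were ENSDART00000160320.2 (edgeR adjusted p = 0.0484) and ENSDART00000126857.3 (edgeR adjusted p = 0.0258). The number called moved under 26 of 32 alternatives and ran from 0 to 4. The rule used this contrast, so these p-values are a description. ENSDART00000160320.2, with the second largest gap of the low set, had 0 to 0.103 CPM in GRKO at 6 months (median 0.0747). In GRKO at 3 months it had 0.0330 CPM in library 4 and 5.92 to 23.4 CPM in the 5 others, and it had 25.8 to 52.2 CPM in WT at 6 months and 10.0, 62.8, 32.9, 6.79 and 8.50 CPM in WT at 3 months. As in ENSDART00000126857.3, GRKO library 4 at 3 months lay with the 6-month mutants and apart from the 5 other young mutants.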

How the data were processed

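RNA from ovaries of GRKO and WT zebrafish at 6 and 3 months was sequenced in 23 libraries. The authors deposited 1 estimated count per transcript and library, with no normalization. The submitters' processing notes name kallisto 0.48.0, which assigns reads to annotated transcripts, and the build GRCz11; the sources used here do not give strand setting, annotation release or filters. Kallisto splits reads that match several transcripts between them, and 75.7% of nonzero values were not whole. Of 57775 transcripts, 3731 had no counts anywhere.

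Titles gave each sample's genotype and age. The members, lists and tests were chosen with earlier results of these data known. CPM is the estimated count over the library's sum, times 1000000. Counts were rounded for tests. In R 4.3.3, edgeR 4.0.16 fitted 1 mean per group over the 23 libraries (robust quasi-likelihood, TMM scaling) to transcripts that passed its default filter. Standard errors were recovered from the fold change and F, as log2 fold change over the root of F. Folds against a group at 0 use a floor of 3 counts over that group and cover counting error only. The test was checked on simulated whole counts, with shifts shared by all libraries of a group. Split reads and transcripts at 0 in only part of a group were not simulated, so the check does not cover them.

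Per set or direction at most 2 transcripts are named in each description: those with the largest gap, the highest mean CPM, the widest separation, and the largest fold among members called. ENSDART00000169235.2 is named under the second and also was called at 3 months. ENSDART00000193000.1 and ENSDART00000189210.1 were named after their values were seen. None of the transcripts named by this rule had whole counts in every library, so their levels may include reads split with others.

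Alternatives were limma 3.58.1 (voom, weighting samples by quality), DESeq2 1.42.0, RLE factors, other filters, pseudocounts, scalings and minimum levels, a block for library number, leaving out libraries, and GRKO library 4 at 3 months dropped or counted as WT. Leaving out GRKO libraries 2, 3 and 5 at 6 months together was chosen after seeing the data. Plots used matplotlib 3.10.9 (Python 3.11.15).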

Additional observations from a re-analysis of the deposited data

Results flagged for a closer look

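In 64 groups of 5 or 6 libraries (the set sums and the named transcripts), 9 had a library far from the others of its group by Dixon's test. Chance gives about 1 in 20 among independent groups not chosen by their values. These transcripts were chosen by their values and share libraries, so no excess over chance is read from the 9. WT library 7 at 6 months was apart in 3 of them. Its low members summed to 657 CPM, where the 5 other WT libraries at 6 months had 914 to 1021 CPM. It had 33.4 CPM of ENSDART00000113789.2, where those 5 had 0.185 to 0.769 CPM, and 37 CPM of ENSDART00000145331.2, where they had 0 to 2.16 CPM. GRKO library 12 at 3 months had 1.59 CPM of ENSDART00000145331.2, above 0 to 0.550 CPM in its group.

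Among the low members, GRKO library 2 at 6 months had 33.4 CPM of ENSDART00000169235.2, where the 5 others had 6.78 to 12.5 CPM. GRKO library 3 at 6 months had 0.0293 CPM of ENSDART00000126857.3, where the others had 0.119 to 0.171 CPM. GRKO library 4 at 3 months, the library with conflicting labels, had 1.11 CPM of ENSDART00000115076.4, where the others had 9.26 to 11.2 CPM. WT library 6 at 3 months had 47.2 CPM of ENSDART00000191271.1, where the others had 34.1 to 37.5 CPM. Among the high members, GRKO library 12 at 6 months had 31.1 CPM of ENSDART00000110514.6, where the others had 68.6 to 87.5 CPM.

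The difference between the effects of genotype at 6 and at 3 months was -7.94 on the log2 scale for ENSDART00000160320.2 and -5.58 for ENSDART00000126857.3, past the threshold of edgeR's interaction test. The rule used this contrast, so the difference is a description.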

How the results depend on the processing

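The choice of members rested on the libraries in use. Leaving out GRKO libraries 2, 3 and 5 at 6 months, chosen after seeing the data, kept 27 low members and 1 high member. A minimum of 5 CPM kept 34 and 27, group means kept 32 high members, and leaving out GRKO libraries 10 and 12 at 6 months kept 49 high members. Leaving out 1 library kept 49 to 72 low members (fewest without GRKO library 5 at 6 months) and 44 to 69 high members (44, 47 and 48 without GRKO libraries 3, 5 and 2 at 6 months). Complete separation held for 5 low and 4 high members without GRKO libraries 10 and 12 at 6 months, 5 and 3 without libraries 2, 3 and 5, and 2 to 4 and 0 to 2 without 1 library (4 without GRKO library 4 or 13 at 3 months, 2 without GRKO library 12 at either age). With fewer libraries, separation is easier for every transcript. The share over all eligible transcripts is not given for these settings, so nothing is read from the higher counts. The left-out library lay beyond the other medians in 309 of the low choices summed over the 6 libraries (270 to 302 under the alternatives) and 258 of the high choices (244 to 260).

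Called members at 3 months were 3 low and 6 high (8.39% of all tested transcripts), against 5 and 15 by DESeq2 (13.4%), 18 and 10 by limma (33.1%), 1 and 1 with GRKO library 4 as WT (1.48%), 5 and 12 without WT libraries 2 and 6 at 3 months (27.2%), and 5 low without GRKO libraries 10 and 12 at 6 months (8.95%). Without 1 library they were 2 to 5 low (5 without GRKO library 10 or 12 at 6 months, 7.9% and 9.4%) and 5 to 10 high (10 without WT library 7 at 6 months, 8.33%). Over all fits without 1 library, 4.96% to 11.3% of tested transcripts passed. For age in WT, DESeq2 called 1 high member (1.68%). At 6 months DESeq2 called 29 low members lower (6.08%) and 24 high members higher (4.94%), and limma 27 low (4.47%). There 8 high members passed without GRKO libraries 10 and 12 (0.798%) and 7 without 2, 3 and 5 (2.23%). Without 1 library, 11 to 17 low (2.34% to 3.84%) and 9 to 19 high (1.25% to 3.44%) passed, with 9 without GRKO library 12. For age in GRKO, DESeq2 called 11 low (0.68%) and 6 high (1.69%), and limma 18 (1.46%) and 13 (0.849%). There 2 high passed without GRKO libraries 2, 3 and 5 at 6 months (0.465%), and 2 to 4 low without 1 library (0.00651% to 0.0163%). In the interaction DESeq2 called 4 low and 1 high (1%), limma 0 low (0.00324%) and the fit without a filter 1 low (0.00188%). The fit without GRKO libraries 10 and 12 at 6 months called 0 low (0%), and fits without 1 library 0 to 3 low (0% to 0.00978%). The cause of these changes was not tested.

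Library numbers were not taken to pair the samples: deviations of same-numbered libraries correlated at -0.43, 0.169 and 0.0568 between GRKO and WT at 3 months, 0.018 at 6 months, -0.0189 and -0.123 between ages in GRKO, and 0.426 and -0.199 between ages in WT. With the number as a replicate block, 1 low and 2 high members passed at 3 months (0.82%), 2 low (0.0389%) and 0 high (0.0162%) at 6 months, 1 low for age in GRKO (0.00324%) and 0 low in the interaction. Percentages are the share of all tested transcripts called in the same fit; for genotype at 6 months and age in GRKO they count lower calls for low and higher calls for high members. No named fold at 3 months changed sign. Of the 75 members of each set, 59 low and 58 high averaged under 10 CPM, where counting limits precision.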
